A study of Mus musculus with 4 samples.

Results

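Transcripts of the matrix metalloproteinases (Mmp), the membrane-anchored ADAMs (Adam), the secreted ADAMTS proteases (Adamts) and the ADAMTS-like proteins (Adamtsl) were compared in gonadal white adipose tissue (WAT) from mice without FSP27 and from their wild-type controls. Members were chosen by name alone: every probe set whose only annotated symbol was Mmp, Adam, Adamts or Adamtsl followed by a number. This gave 72 of 22690 probe sets and 52 of 12394 genes, namely 18 Mmp, 25 Adam, 7 Adamts and 2 Adamtsl genes. A further probe set, annotated to both Adam1a and Mapkapk5, was left out. The FSP27-deficient animals were Fsp27-null (Cidec) mice, and both genotypes were 3-month-old C57BL/6J males. RNA from 5 mice of each genotype was combined into a pool of 45 μg, and each pool was hybridized to 2 Affymetrix arrays, which gave 2 FSP27-deficient and 2 wild-type arrays. The duplicates therefore shared their RNA, and p-values reflect array-to-array spread only, since differences among the mice of a genotype were averaged out in its pool.

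Metalloproteinases of these families cut proteins outside the cell with a zinc ion bound at the active site. Mmp enzymes degrade collagens, basement membrane and other matrix proteins, many ADAMs release the extracellular part of membrane proteins, and ADAMTS enzymes cleave proteoglycans and process collagens. They are made as inactive precursors that furin-like convertases, other proteases or plasmin open, and TIMP proteins block them. In adipose tissue they are known from the remodelling of matrix that accompanies growth of the fat pad, and they are made by adipocytes as well as by stromal, mesothelial and immune cells.

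The gene deleted in the mutant was checked first. Cidec gave signals of 8564 and 8949 in FSP27-deficient WAT, against 20491 and 18255 in wild-type WAT, so the probe set was 2.21-fold lower but not lost (limma adjusted p = 0.000566); whether it lies inside the deleted part was not given in the sources used here. Signals are the linear probe set intensities that the array software wrote, and the median over all probe sets was between 165 and 193 on the 4 arrays. A gene was represented by its probe set with the highest mean signal, was tested when that mean was at least 100, and was called at a limma adjusted p under 0.05 over all 8523 genes that reached 100. Changes are given on the log2(signal + 16) scale as FSP27-deficient minus wild-type, so a negative value means lower in FSP27-deficient WAT, and they understate the change of dim genes. Signals of different probe sets are not levels that can be set against each other.

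Of the 52 genes, 27 reached a mean signal of 100 (10 Mmp, 12 Adam, 4 Adamts and 1 Adamtsl) and 25 did not. Among the 27, Adam12 and Mmp19 were higher in FSP27-deficient WAT, and Adamts5, Adam15, Mmp14 and Mmp7 were lower. The 6 called genes made up 22.2% of the 27, beside 12.3% of all genes tested (5.78% called higher and 6.51% called lower). By the fold criterion of the study's methods, mean signals that differed at least 1.41-fold in either direction with both same-numbered pairs of arrays on the same side, 5 members were higher and 11 lower, which is 59.3% of the 27 beside 34.9% of all genes tested (14.4% higher and 20.6% lower). The sources do not say whether same-numbered arrays were processed together, and 1 of the 5, Mmp17, passed although its genotypes overlapped. Adam22, Adam23 and Mmp17, counted as higher, and Mmp12 and Mmp16, counted as lower, reached 100 only through the genotype in which they were high. Among the 21 members with both genotype means at 100 or more, 2 were higher and 9 lower by this criterion (52.4%). The share of all genes selected in that way was not taken. The signals of the genotypes did not overlap for 16 members, 5 with the FSP27-deficient duplicates on top and 11 with them at the bottom, which is again 59.3%. This last share is close to the 54.1% of all genes tested without overlap (22.7% with the FSP27-deficient duplicates on top and 31.4% with them at the bottom). The median change of the 27 was -0.23, and that of all genes tested was -0.08. The median of a family depended on members that reached 100 through a single genotype: it was -0.67 over 10 Mmp genes but -0.16 over the 6 with both genotype means at 100 or more, and 0.01 over 12 Adam genes but -0.13 over 10. All 4 Adamts genes had both means at 100 or more, with a median of -0.84. In pooled tissue, fewer cells of a type and less RNA per cell cannot be told apart.

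**Figure D1:**
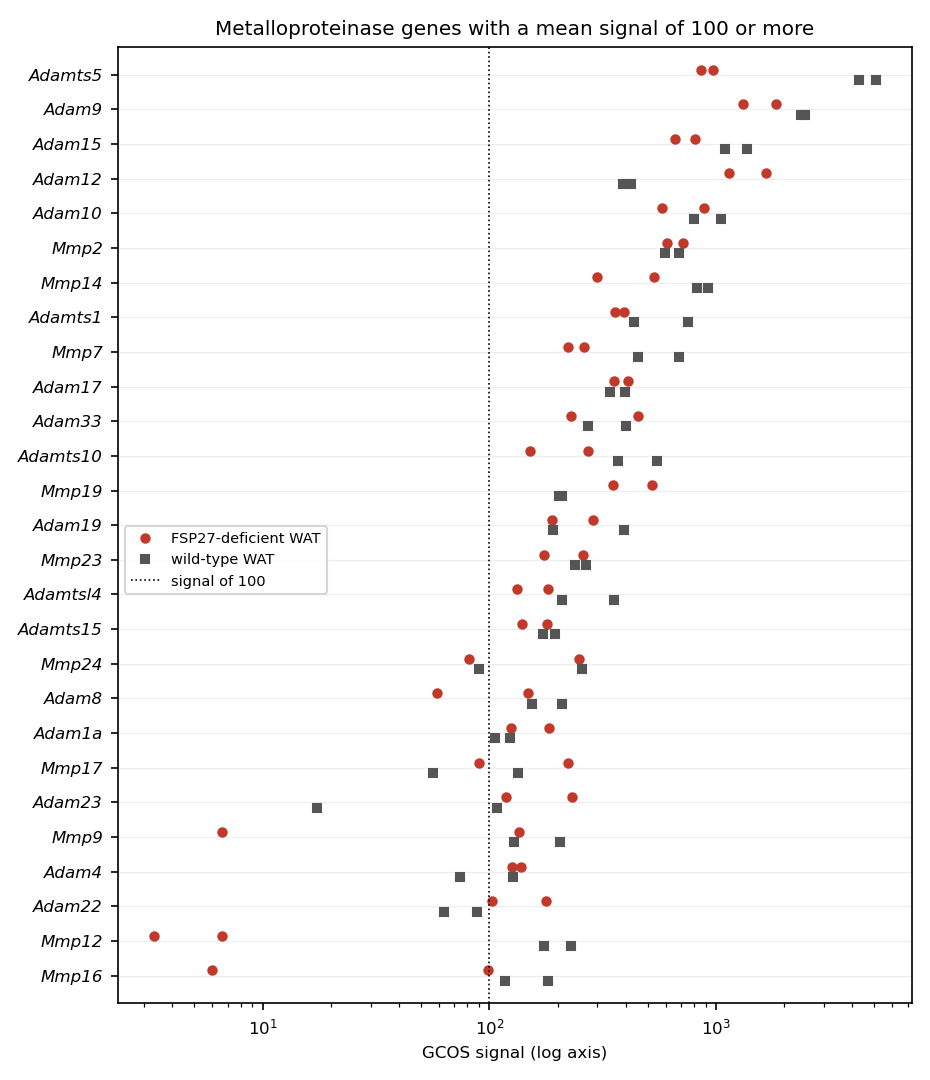
Signal of each of the 27 metalloproteinase genes with a mean signal of 100 or more on the 2 FSP27-deficient and 2 wild-type arrays, on a log axis. The arrays of the genotypes lie far apart for Adamts5 and Adam12, whereas those of Mmp2, Adam17 and Adam33 overlap.

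**Figure D2:**
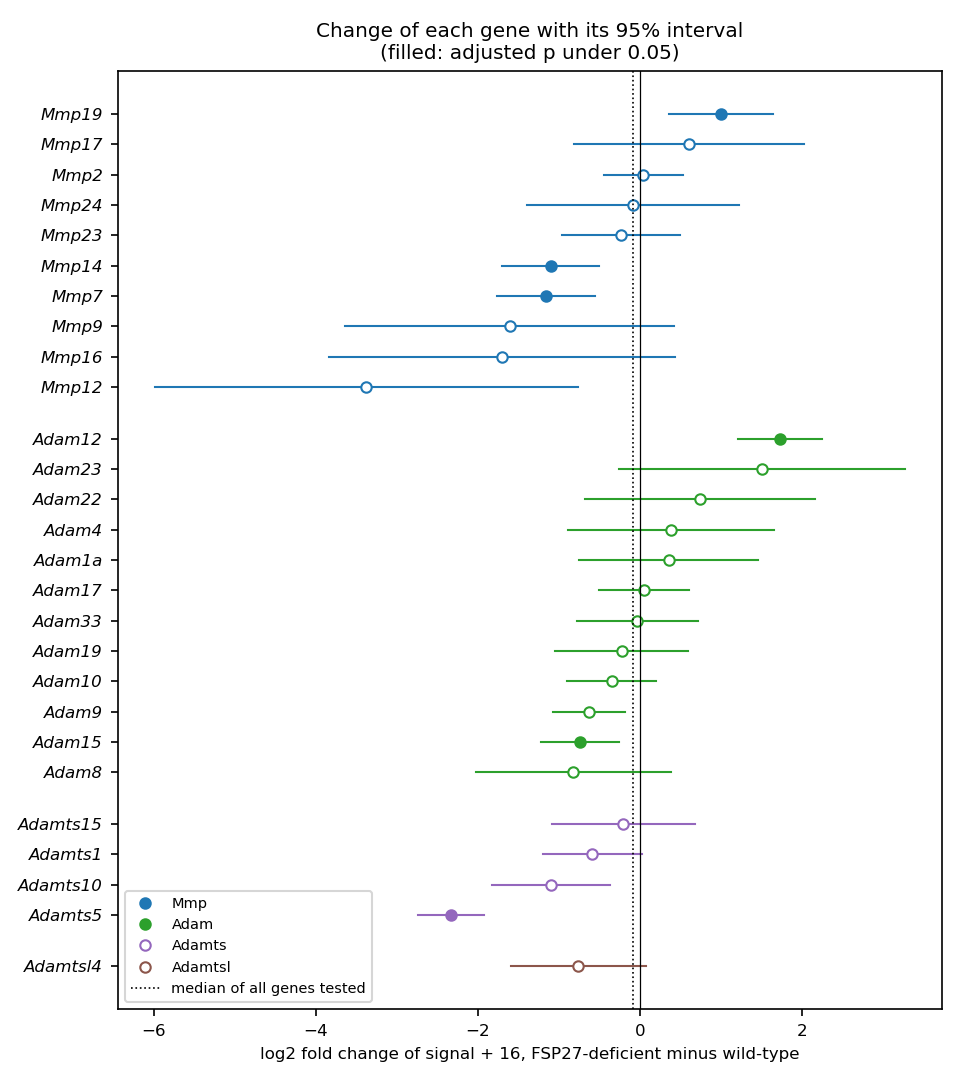
Change of the same 27 genes between FSP27-deficient and wild-type WAT on the log2(signal + 16) scale, with 95% confidence intervals from limma; genes at an adjusted p under 0.05 are marked. Adamts5 at -2.33 and Adam12 at 1.73 lie at opposite ends of the called genes, and the interval of Mmp12 runs from -5.98 to -0.76.

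Adamts5, an aggrecanase that cleaves the proteoglycans aggrecan and versican, was the most strongly lowered of the called members. Its signals were 859.7 and 967 in FSP27-deficient WAT, against 5076 and 4258 in wild-type WAT, a 5.11-fold lower mean. The duplicates of each genotype lay close together beside this difference, and the change was -2.33 (SE 0.19, limma adjusted p = 2.96e-05). A second Adamts5 probe set, with 247 and 346 in FSP27-deficient WAT, against 946 and 1010.5 in wild-type WAT, was lower as well (-1.69, limma adjusted p = 0.000963). A fit without a given array leaves 1 array of that genotype, which is then assumed to vary like the duplicates of the other. In such fits the Adamts5 change lay between -2.46 and -2.20; the call was lost with an error variance that did not depend on signal (adjusted p = 0.0544) and in the methods' t-test (adjusted p = 0.239).

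The other Adamts genes did not pass the test. Adamts10, whose product associates with fibrillin microfibrils, gave 151 and 272 in FSP27-deficient WAT, against 550.2 and 371 in wild-type WAT (-1.09, SE 0.33, limma adjusted p = 0.052), with no overlap between the genotypes. Adamts1, another proteoglycan-cleaving member, gave 360.2 and 394 in FSP27-deficient WAT, against 751 and 436 in wild-type WAT, with a 95% interval of the change from -1.19 to 0.02. Here 1 wild-type array carried most of the difference. Adamtsl4, which lacks a protease domain and binds fibrillin, gave 181 and 132 in FSP27-deficient WAT, against 356 and 209 in wild-type WAT (limma adjusted p = 0.243). Adamts15 gave 139 and 179 in FSP27-deficient WAT, against 196 and 173 in wild-type WAT, and the arrays overlapped.

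Adam12, a protease known from muscle regeneration and fat cell formation that cleaves IGF-binding proteins, was 3.47-fold higher in FSP27-deficient WAT. Its signals were 1662 and 1142 in FSP27-deficient WAT, against 387 and 421 in wild-type WAT (1.73, SE 0.24, limma adjusted p = 0.000681). The second Adam12 probe set gave 834 and 801 in FSP27-deficient WAT, against 188 and 253 in wild-type WAT, a change of 1.83 with a limma adjusted p of 0.000708. All 4 comparisons of a mutant with a wild-type array thus pointed the same way on both probe sets. The Adam12 change was 1.47 or more whichever single array was left out. The call was lost with an error variance that did not depend on signal (adjusted p = 0.067) and in the methods' t-test (adjusted p = 0.274).

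Adam15, a membrane protease with an integrin-binding disintegrin domain, was the other called ADAM. Signals were 811 and 659.9 in FSP27-deficient WAT, against 1376 and 1101 in wild-type WAT, a 1.68-fold lower mean (-0.74, SE 0.22, limma adjusted p = 0.0463). The gene had 4 probe sets, and all were lower, from -0.74 to -0.48, although none passed the test when every probe set was tested on its own. The call was lost without FSP27-deficient array 2 (adjusted p = 0.118), wild-type array 1 (0.376) or wild-type array 2 (0.105), with quantile normalization (0.0917), with arrays centred on their medians (0.0995), with the mean of the probe sets (0.0708), with no filter (0.066), without a variance trend (0.177) and in the methods' t-test (0.358).

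The main sheddases did not pass the test. Adam17, which releases TNF and many growth factors, gave 410.0 and 355 in FSP27-deficient WAT, against 396 and 342 in wild-type WAT, and the 95% interval of its change ran from -0.50 to 0.60. Adam10, which cleaves Notch receptors and cadherins, gave 888 and 579 in FSP27-deficient WAT, against 797 and 1055 in wild-type WAT, with an interval from -0.90 to 0.20. Its arrays overlapped on the brightest probe set, but not on the other probe sets, which gave 225 and 232 in FSP27-deficient WAT, against 386 and 369 in wild-type WAT, and 161 and 57.1 in FSP27-deficient WAT, against 236 and 241 in wild-type WAT (-0.68 and -1.16, limma adjusted p = 0.153 and 0.178). Adam9, a widely expressed sheddase, gave 1839 and 1315 in FSP27-deficient WAT, against 2361 and 2467 in wild-type WAT. The genotypes were apart, and the change of -0.63 (SE 0.20) had a limma adjusted p of 0.0677.

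Of the ADAMs linked to stroma and immune cells, Adam33 gave 453 and 228 in FSP27-deficient WAT, against 399.9 and 272 in wild-type WAT, and Adam19 gave 189 and 287 in FSP27-deficient WAT, against 191 and 393 in wild-type WAT. In both genes the duplicates differed by more than the genotypes did. Adam8, a protease of leukocytes, gave 148 and 58.5 in FSP27-deficient WAT, against 208 and 154 in wild-type WAT (-0.82, limma adjusted p = 0.402). Adam22 and Adam23 lack the catalytic zinc site and act as receptors of LGI proteins in the nervous system. Adam23 gave 232 and 119 in FSP27-deficient WAT, against 108 and 17.3 in wild-type WAT, and Adam22 gave 102 and 178 in FSP27-deficient WAT, against 88.2 and 62.9 in wild-type WAT. The genotypes did not overlap in either gene, but both reached a mean of 100 through the FSP27-deficient arrays only, and the limma adjusted p-values were 0.277 and 0.535. Of the testis genes, Adam1a gave 183 and 124.2 in FSP27-deficient WAT, against 106 and 123.5 in wild-type WAT, so its genotypes were apart by a narrow margin. Adam4 gave 126 and 137 in FSP27-deficient WAT, against 127 and 74.1 in wild-type WAT, with overlap. The genotype means lay closer together than the FSP27-deficient duplicates for Adam1a and than the wild-type duplicates for Adam4.

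Mmp19, a soluble metalloproteinase that cleaves basement membrane proteins, was the Mmp gene called higher. It gave 520.4 and 353 in FSP27-deficient WAT, against 202 and 209 in wild-type WAT, a 2.12-fold higher mean (1.01, SE 0.29, limma adjusted p = 0.0437). The second Mmp19 probe set pointed the same way, with 419 and 254 in FSP27-deficient WAT, against 174 and 232 in wild-type WAT, but did not pass (0.66, limma adjusted p = 0.265). The call was lost without FSP27-deficient array 1 (adjusted p = 0.196), wild-type array 1 (0.196) or wild-type array 2 (0.166), with the mean of both probe sets (0.0963), with no filter (0.128), without a variance trend (0.124) and in the methods' t-test (0.345).

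Mmp14, the membrane-anchored collagenase that also activates the precursor of Mmp2, was 2.11-fold lower. It gave 532 and 298 in FSP27-deficient WAT, against 922 and 827 in wild-type WAT (-1.10, SE 0.27, limma adjusted p = 0.0208). A second Mmp14 probe set gave 181 and 111 in FSP27-deficient WAT, against 487 and 259.9 in wild-type WAT (-1.24, limma adjusted p = 0.0593), again without overlap. The call was lost without FSP27-deficient array 2 (adjusted p = 0.0756), wild-type array 1 (0.149) or wild-type array 2 (0.0789), with no filter (0.0556), without a variance trend (0.149) and in the methods' t-test (0.412). Mmp2 itself, a gelatinase of fibroblasts, gave 713 and 606 in FSP27-deficient WAT, against 685 and 594 in wild-type WAT. Its change of 0.04 had a 95% interval from -0.44 to 0.53, and the second probe set, with 419 and 479.7 in FSP27-deficient WAT, against 553 and 445 in wild-type WAT, gave -0.14.

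The remaining membrane-type and gelatinase genes were dim and varied between duplicates. Mmp17 gave 223 and 90.3 in FSP27-deficient WAT, against 134 and 56.4 in wild-type WAT, and Mmp24 gave 80.9 and 249 in FSP27-deficient WAT, against 257 and 90.0 in wild-type WAT. For both, the arrays of 1 genotype spanned those of the other or overlapped them. Mmp16 gave 5.98 and 98.4 in FSP27-deficient WAT, against 182 and 118 in wild-type WAT (-1.70, limma adjusted p = 0.314). Mmp9, the gelatinase of neutrophils and macrophages, gave 6.61 and 136 in FSP27-deficient WAT, against 205 and 128 in wild-type WAT (-1.61, limma adjusted p = 0.316). A second Mmp9 probe set, under a mean of 100 and not tested, gave 33.7 and 22.0 in FSP27-deficient WAT, against 96.4 and 107 in wild-type WAT, without overlap. On the brightest probe sets the FSP27-deficient duplicates of Mmp9 and Mmp16 disagreed strongly, and both genes reached a mean of 100 through the wild-type arrays only. Mmp23 gave 174 and 259.6 in FSP27-deficient WAT, against 267 and 238 in wild-type WAT, with overlap (-0.23). Its second probe set gave 27.7 and 192 in FSP27-deficient WAT, against 267 and 289.7 in wild-type WAT, without overlap (-1.62, limma adjusted p = 0.129).

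Mmp7 and Mmp12 belong to a run of Mmp genes on chromosome 9, where RefSeq lists 10 Mmp genes with 0 other protein coding genes between them. Of these, 9 were measured, and Mmp7 and Mmp12 were the 2 that reached a mean signal of 100. Promoter windows, 250 bases before to 50 bases after the annotated start, were read from RefSeq (GRCm38.p6) for the 28 members that matched. They were searched on both strands for the AP-1 site (TGAGTCA or TGACTCA) and the GC box (GGGCGG or CCGCCC), and on the strand of the gene alone for the TATA box (TATAAA). An AP-1 site was found in 9 of the 28 (32.1%), beside 5.95% of all genes with a window, and a TATA box also in 9 (32.1%), beside 9.77% of all genes. The GC box was found in 12 members (42.9%), beside 38.2% of all genes. The 7 members with both an AP-1 site and a TATA box, Mmp1a, Mmp1b, Mmp3, Mmp7, Mmp10, Mmp12 and Mmp13, are all genes of this run. The windows of Mmp7, Mmp12 and Mmp3 are shown for this shared pair of motifs, and that of Mmp14, which lies on another chromosome and holds neither, for contrast. Capitals mark the TATA boxes and AP-1 sites, and in Mmp14 the 2 adjoining GC boxes.
Mmp7, chr9:7691840-7692139, plus strand: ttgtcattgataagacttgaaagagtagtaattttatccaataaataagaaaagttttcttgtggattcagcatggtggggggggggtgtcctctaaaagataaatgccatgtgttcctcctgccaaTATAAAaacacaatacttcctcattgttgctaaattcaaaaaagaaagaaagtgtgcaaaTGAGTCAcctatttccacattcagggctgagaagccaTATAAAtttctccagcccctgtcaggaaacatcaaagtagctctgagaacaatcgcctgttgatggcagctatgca
Mmp12, chr9:7347124-7347423, plus strand: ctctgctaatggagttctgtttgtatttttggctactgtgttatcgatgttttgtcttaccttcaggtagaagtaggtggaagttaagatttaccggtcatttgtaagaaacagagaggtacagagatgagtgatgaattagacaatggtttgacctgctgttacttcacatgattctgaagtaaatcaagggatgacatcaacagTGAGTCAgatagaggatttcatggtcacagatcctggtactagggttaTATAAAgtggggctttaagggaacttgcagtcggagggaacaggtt
Mmp3, chr9:7445572-7445871, plus strand: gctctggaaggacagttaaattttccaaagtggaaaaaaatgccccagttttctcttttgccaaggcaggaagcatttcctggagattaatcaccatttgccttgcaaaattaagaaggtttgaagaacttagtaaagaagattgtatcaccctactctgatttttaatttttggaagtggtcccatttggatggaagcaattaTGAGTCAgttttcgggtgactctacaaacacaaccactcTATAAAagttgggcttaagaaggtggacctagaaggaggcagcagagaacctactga
Mmp14, chr14:54431348-54431647, plus strand: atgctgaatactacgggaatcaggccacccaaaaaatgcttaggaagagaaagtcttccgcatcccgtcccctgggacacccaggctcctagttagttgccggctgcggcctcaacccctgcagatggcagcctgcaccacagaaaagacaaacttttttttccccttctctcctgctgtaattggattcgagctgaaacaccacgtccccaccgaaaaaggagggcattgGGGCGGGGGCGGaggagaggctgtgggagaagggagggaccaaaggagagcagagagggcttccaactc
The AP-1 sites begin 63, 44 and 46 bases before the annotated start in Mmp7, Mmp12 and Mmp3. The TATA boxes begin 123 and 26 bases before it in Mmp7 and 7 before it in Mmp3, but 4 bases after it in Mmp12. A match of letters is a description of the window and no measure of binding.

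The genes of this run gave different values. Mmp7, matrilysin, a protease of epithelia, gave 222 and 262 in FSP27-deficient WAT, against 688 and 453 in wild-type WAT, a 2.36-fold lower mean (-1.16, SE 0.28, limma adjusted p = 0.0177). The genotypes were apart, and the call was lost without wild-type array 1 (-0.87, adjusted p = 0.291), with no filter (0.0611), without a variance trend (0.114) and in the methods' t-test (0.345). Mmp12, the elastase of macrophages, gave 3.30 and 6.61 in FSP27-deficient WAT, against 230.1 and 175 in wild-type WAT. It was the 1 member tested whose FSP27-deficient signals both lay below the lower quartile of their arrays (55.9 and 53.8), so it passed the filter through the wild-type arrays only and no fold is given. Its change of -3.37 (SE 1.20) had a limma adjusted p of 0.0927, and of 0.0163 when no filter was applied. With FSP27-deficient signals this low the size of the change is set by the pseudocount, being -5.14 (adjusted p = 0.375) with 1 and -1.94 (adjusted p = 0.0254) with 64. The adjusted p without a single array ran between 0.0051 and 0.735, lower when an FSP27-deficient and higher when a wild-type array was left out. Mmp3, stromelysin, gave 139.8 and 128 in FSP27-deficient WAT, against 62.4 and 41.1 in wild-type WAT, with both wild-type signals below the lower quartile of their arrays (64.1 and 52.7), a mean under 100 and an adjusted p of 0.344 when no filter was applied.

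Whether a member passed the filter turned on small differences near 100. The members just inside it were Adam22, Mmp12 and Mmp16, with means of 107.9, 103.7 and 101.1, and those just outside were Adamtsl5, Adam2 and Mmp3, with means of 96.8, 95.5 and 92.8. Both genotype means reached 100 in 21 of the 27 members, which included all 6 called genes (28.6%, beside 12.8% of the genes selected in the same way). The other 6 passed through a single genotype, Adam22, Adam23 and Mmp17 through the FSP27-deficient and Mmp9, Mmp12 and Mmp16 through the wild-type arrays.

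All 4 genes for the classical collagenases and their rodent paralogs, Mmp1a, Mmp1b, Mmp8 and Mmp13, were under 100. Mmp8, the collagenase of neutrophils, gave 105 and 107 in FSP27-deficient WAT, against 10.5 and 144 in wild-type WAT, and Mmp13 gave 1.12 and 41.1 in FSP27-deficient WAT, against 81.6 and 26.0 in wild-type WAT. No order of the genotypes can be read from either. Of the 25 genes under 100, 3 lay above and 3 below wild-type on both arrays, beside 35.9% of all genes under 100 that were apart in either direction. Those above were Mmp3, Adamts7 (141 and 55.7 in FSP27-deficient WAT, against 12.8 and 39.4 in wild-type WAT) and Mmp20 (96.1 and 64.1 in FSP27-deficient WAT, against 22.7 and 34.2 in wild-type WAT). Those below were Mmp11, Adam7 and Adam28, and a second probe set of Adam28 lay the other way round, with 76.1 and 11.6 in FSP27-deficient WAT, against 6.96 and 9.17 in wild-type WAT. Many of these signals lie near or below the lower quartiles of the arrays (52.7 to 64.1), where an order is not reliable. Adam7, known from epididymis, gave 71.3 and 68.4 in FSP27-deficient WAT, against 87.4 and 141 in wild-type WAT. Adam2, a sperm protein, gave 110.3 and 150.2 in FSP27-deficient WAT, against 112 and 9.33 in wild-type WAT, with overlap. Mmp1b, Adam3 and Mmp10 lay below the lower quartile of every array.

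**Figure D3:**
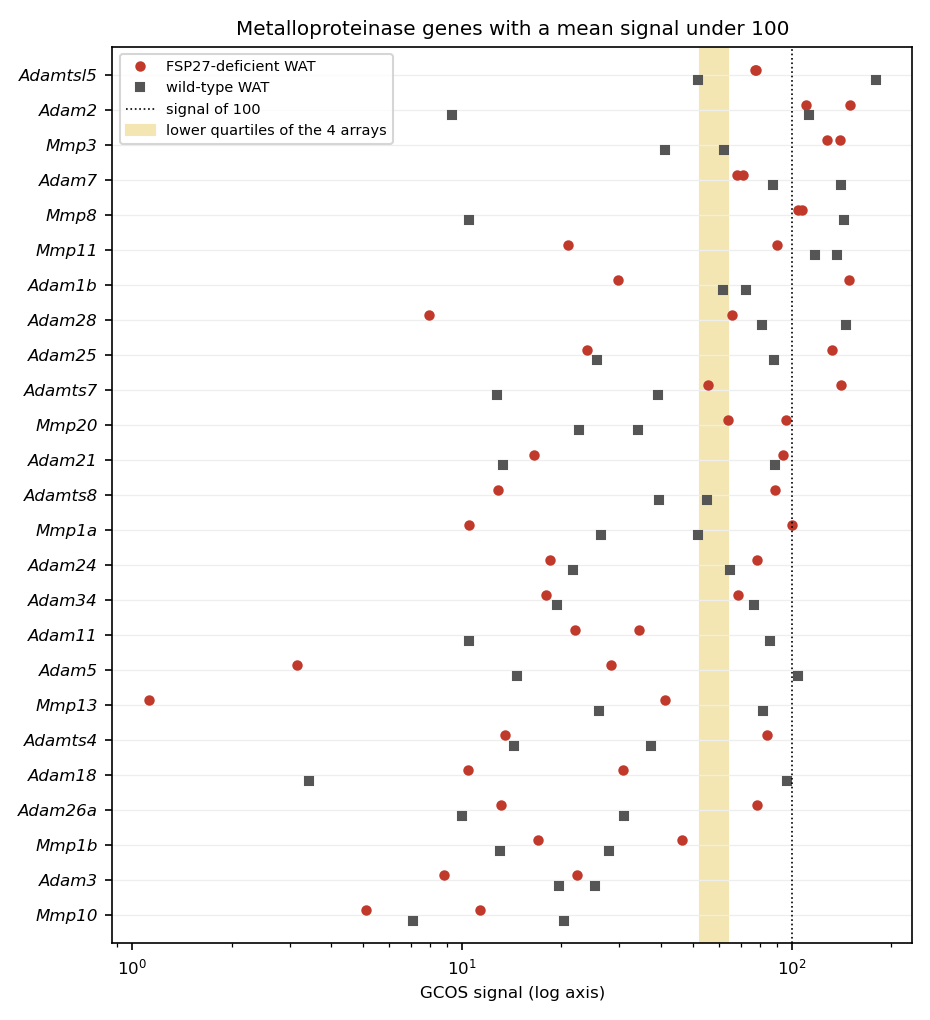
Signal on the 2 FSP27-deficient and 2 wild-type arrays of the 25 metalloproteinase genes with a mean signal under 100, on a log axis. Single arrays reach 100 for 11 of them, and duplicates of the same genotype are often far apart.

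The dim members were also measured with less precision. The median distance between duplicates, on the log2 scale, was 0.54 in FSP27-deficient and 0.40 in wild-type WAT for the 27 members, and 1.21 and 0.85 for the 25 under 100. For all genes tested it was 0.31 and 0.24. Members with several probe sets gave a further check. Of 16 such genes, 10 had more than 1 probe set with a mean of at least 100, and in 7 of the 10 all of those probe sets pointed the same way. The exceptions were Adam17, Mmp2 and Mmp24, whose brightest probe sets gave changes of 0.05, 0.04 and -0.09. The other Adam17 probe sets gave -0.14 and -0.03, and the second of Mmp2 gave -0.14. The second Mmp24 probe set gave 182 and 179 in FSP27-deficient WAT, against 46.9 and 198 in wild-type WAT, with overlap (0.76, limma adjusted p = 0.493).

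**Figure D4:**
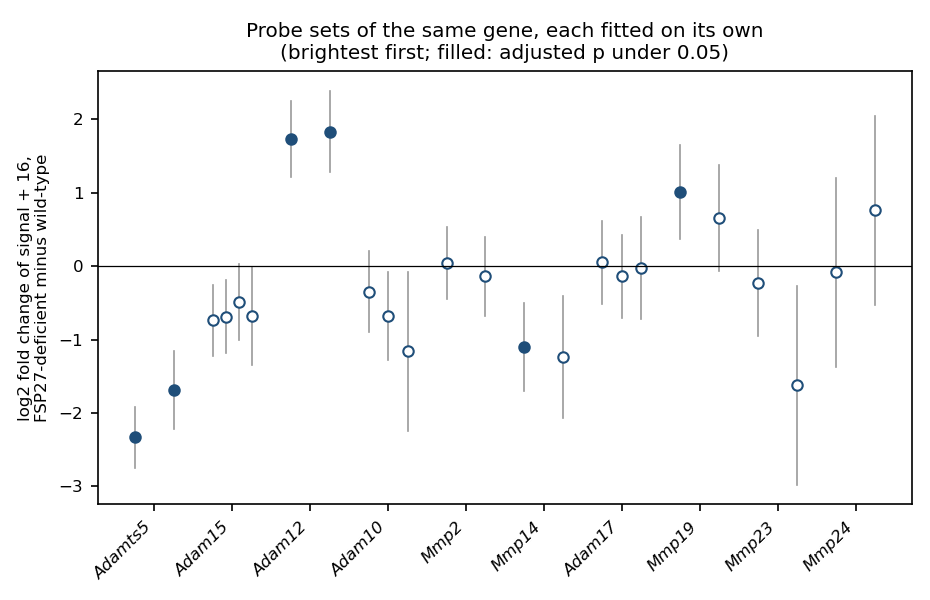
Change on the log2(signal + 16) scale, FSP27-deficient minus wild-type, for each probe set with a mean signal of 100 or more of the 10 member genes that have several, with 95% confidence intervals. Both probe sets of Adamts5 lie at -1.69 or lower and both of Adam12 at 1.73 or higher, while those of Mmp2 and Adam17 lie on either side of 0.

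Genes that act on or with the metalloproteinases were examined next, and their counts stand beside 5.78% called higher and 6.51% called lower of all genes tested. Of 6 inhibitor genes, 5 reached a mean of 100, and Timp4 and Timp2 were lower in FSP27-deficient WAT, with a median change of -1.12. Timp4, an inhibitor abundant in adipose tissue, gave 517 and 909 in FSP27-deficient WAT, against 5223 and 8031 in wild-type WAT (-3.21, limma adjusted p = 3.74e-05). Of 6 tested genes for precursor convertases and plasminogen activation, Pcsk6 was lower, with 438 and 277 in FSP27-deficient WAT, against 716 and 613 in wild-type WAT (-0.90, limma adjusted p = 0.0469). Furin, the convertase that opens many ADAM and membrane-type Mmp precursors, gave 608 and 341 in FSP27-deficient WAT, against 352 and 248 in wild-type WAT, and did not pass. Of 9 tested partners of ADAM17 and ADAM10, 0 passed in limma and 0 had an unadjusted p under 0.05, and the median change was -0.38.

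Transcripts of substrates were described in the same way, again beside 5.78% called higher and 6.51% called lower of all genes tested. Of 18 tested genes for proteins that ADAM17 or ADAM10 shed, 4 were lower and 0 higher, with a median of -0.69. The 4 were Lrp1, Axl, Mertk and Sdc1, whose products include receptors for lipoproteins and for apoptotic cells and a heparan sulfate proteoglycan. Of 15 tested ADAMTS substrates and fibrillin partners, 6 were lower and 0 higher, with a median of -0.75. They were the collagen genes Col1a1, Col1a2 and Col3a1, the small proteoglycans Dcn and Bgn, and Fn1, fibronectin, at -2.08. Vcan, the versican that Adamts5 cleaves, gave 204 and 180.2 in FSP27-deficient WAT, against 278 and 385 in wild-type WAT (-0.73, limma adjusted p = 0.171). Among 10 other tested metallopeptidases of the cell surface or secretory path, Cpe, carboxypeptidase E, was lower (-1.41, limma adjusted p = 0.00274).

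Some markers of the cell types in the fat pad differed between the genotypes as well. Their counts also stand beside 5.78% called higher and 6.51% called lower of all genes tested. Of 9 tested macrophage markers, 5 were lower (Lyz2, Csf1r, Mrc1, Cd68 and Cd163), and the summed signal of the 10 measured was 5686 and 6882 in FSP27-deficient WAT, against 15599 and 14127 in wild-type WAT. Of 6 mesothelial markers, 3 were lower (Upk3b, Krt8 and Msln), with sums of 2013 and 1570 in FSP27-deficient WAT, against 4486 and 4534 in wild-type WAT. Of 9 fibroblast and preadipocyte markers, Dpp4 and Dpt were lower, with sums of 8687 and 10914 in FSP27-deficient WAT, against 15139 and 15137 in wild-type WAT. Dpp4 gave 29.1 and 131 in FSP27-deficient WAT, against 417 and 410 in wild-type WAT, and reached a mean of 100 through the wild-type arrays only. The summed signals of these 3 lists were lower on both FSP27-deficient arrays. So were those of endothelial markers (5251 and 5691, against 7230 and 7935 in wild-type WAT) and mast cell markers (229 and 657, against 911 and 1064). Such sums are carried by the brightest genes of a list, such as Lyz2 and Csf1r for macrophages and Dpt for fibroblasts. The macrophage markers Adgre1, Cd14 and Fcgr1 overlapped between the genotypes. Of 8 adipocyte markers, Pnpla2 was higher and Lep lower, with a median of 0.23. Of 8 endothelial markers, Pecam1 was lower (median -0.54), and of 3 tested mast cell markers 0 passed in limma and 1 had an unadjusted p under 0.05 (median -1.06). Neutrophil markers were mostly near the floor, with 4 of 10 tested and a median of 0.40. Lcn2 was lower (-0.97, limma adjusted p = 0.0223), and S100a8, Ngp and Mpo gave 0.51, 0.29 and 1.59 without passing. Of 7 measured T and B cell markers only Cd79b was tested (0.58, limma adjusted p = 0.725), and their summed signal was 1008 and 485 in FSP27-deficient WAT, against 479 and 239.7 in wild-type WAT. Of 6 skeletal muscle markers only Acta1 was tested (-0.83, limma adjusted p = 0.0868). Further, 2 of 10 testis and 2 of 6 measured epididymis markers reached 100, with 0 called in limma and 0 at an unadjusted p under 0.05. The part of these cell types in the changes of the metalloproteinase genes was not tested.

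**Figure D5:**
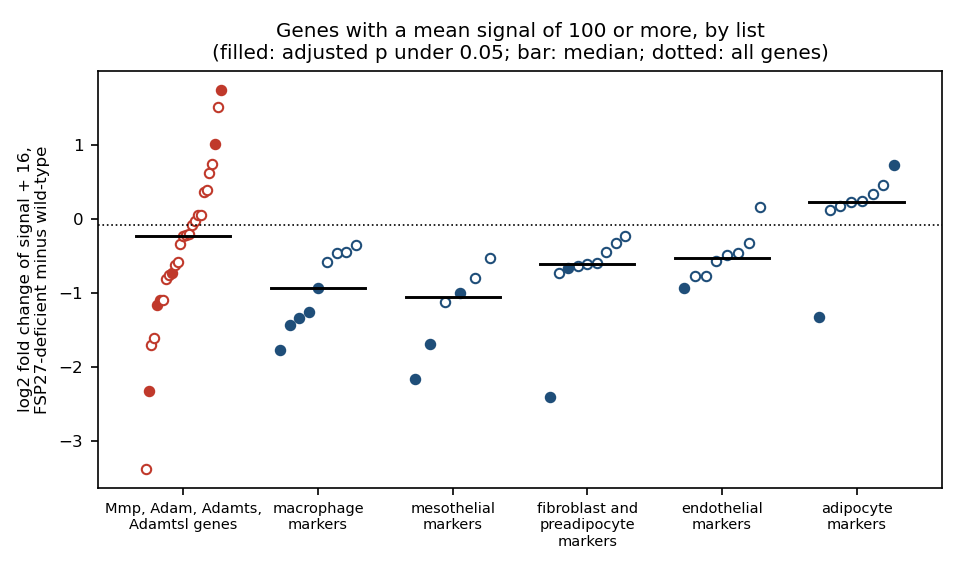
Change on the log2(signal + 16) scale, FSP27-deficient minus wild-type, of each tested member gene and of the tested genes in some cell type marker lists. The lists are the macrophage, mesothelial, fibroblast and preadipocyte, endothelial and adipocyte markers. Points are genes and bars are list medians. The members have a median of -0.23, the macrophage markers of -0.93 and the adipocyte markers of 0.23.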

How the data were processed

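Gonadal WAT RNA pools of FSP27-deficient and wild-type mice were measured on 2 Affymetrix arrays per genotype. The deposited values are linear signal intensities from GCOS; the sources name neither its version nor its scaling target. Detection calls were not used. Symbols came from the platform annotation (20393 probe sets with 1 symbol, 691 with several and 1606 with none). The brightest probe set stood for each gene, genes under a mean of 100 were set aside, and log2(signal + 16) values were fitted with limma 3.58.1 in R 4.3.3 (lmFit, eBayes with trend, Benjamini-Hochberg adjustment over 8523 genes). With 2 arrays per genotype the exact permutation p cannot fall below 0.333, so calls rest on variance shared across genes, and precision is limited by there being 4 arrays. Settings varied were the pseudocount (1 or 64), the minimum mean (none or 200), the scaling (quantile or median centring), the handling of several probe sets (each, or their mean), the variance trend (none) and the test (the methods' t-test, a replicate block), and each array was left out in turn.

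Named genes were all called members, the 10 with the highest signal, those the study names, the largest changes with genotypes apart, those nearest to 100 and the leading genes of each list; the remaining members with values in the text, such as Mmp8, Mmp9 and Adamts7, were added to account for the rest after their values were seen. The members, the rule and the gene lists were chosen with earlier results of these data known. Promoter sequences and gene order are from RefSeq (GRCm38.p6); the deposited values have no coordinates.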

Additional observations from a re-analysis of the deposited data

How the results depend on the processing

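Adamts5 and Adam12 passed the test under every alternative except an error variance without trend and the methods' t-test. Without trend, limma called 0 of the 27 members, beside 1 of all 8523 genes tested. An unadjusted p under 0.05 in that fit was reached by 8 members and by 1861 of all genes. The methods' t-test called 0 members and 0 of all genes, and 3 members and 1309 of all genes had an unadjusted p under 0.05. These 2 settings called almost no gene of any kind. With no filter on low signals, 1 of 52 members was called higher and 2 lower, beside 389 and 386 of all 12394 genes. In that setting 9 of the 52 were past the fold criterion and higher and 15 past it and lower, and 8 were apart and higher and 14 apart and lower. With a minimum of 200, 2 of 16 members were past the fold criterion and higher and 8 past it and lower, and 2 were apart and higher and 8 apart and lower. The median of the 16 was -0.47, beside -0.09 for all 6626 genes tested there. Averaging the probe sets of a gene gave 1 of 25 members called higher and 3 called lower, beside 416 and 438 of all 7923 genes. The median was -0.59, beside -0.07 for all of those genes. With every probe set on its own, 7 of 41 member probe sets were past the fold criterion and higher and 19 past it and lower. The same setting gave 7 apart and higher and 19 apart and lower. Centring the arrays gave 8 of 27 members apart and higher and 11 apart and lower. A minimum of 100 in both genotypes, chosen after seeing the data, gave 2 of 21 members past the fold criterion and higher and 9 past it and lower. There, 3 were apart and higher and 9 apart and lower. The shares of all genes past the fold criterion or apart were not taken in these alternative settings, so those counts cannot be read as particular to the members.

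Leaving out each array in turn, with the lone array assumed to vary like the other genotype, gave 1 to 2 members called higher, 1 to 6 called lower, 5 to 7 past the fold criterion and higher, 11 to 13 past it and lower, 5 to 9 apart and higher, 13 to 16 apart and lower, and medians from -0.39 to -0.20. Calls were fewest without wild-type array 1 and next fewest without wild-type array 2, for the members and for all genes tested alike. They were most numerous without FSP27-deficient array 2, again for both. The rise and fall of calls in these fits is therefore not particular to the members. Changes near 0 turned sign. Averaged probe sets gave -0.049 for Mmp2, -0.040 for Adam17 and 0.34 for Mmp24, and leaving out arrays gave -0.072 to 0.157 for Mmp2, -0.052 to 0.15 for Adam17 and -0.81 to 0.64 for Mmp24.

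The deviations of same-numbered arrays correlated at 0.0651 over 8523 genes. This low value cannot tell whether same-numbered arrays were processed together, which the sources do not say. With a replicate block, 2 members were called higher and 6 lower, beside 635 and 831 of all genes. The main fit called 493 and 555 of all genes. The added members were Adam9 (-0.63, limma adjusted p = 0.0224) and Adamts10 (-1.09, limma adjusted p = 0.0178).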
